A study of Mus musculus with 743 samples.

Results

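Levels of 42 genes of the basal lamina and the extracellular matrix were followed in single Schwann cells (SCs), the glia of peripheral nerves, taken from mouse sciatic nerve on postnatal day 1. The 42 genes were a listed set, chosen by name with earlier results of these data known. Each was found among the 25700 genes of the count table. They comprised 8 laminin chains, 4 laminin-binding linkers and heparan sulphate proteoglycans, 5 collagens of basement membranes, 6 fibrillar collagens, 6 other collagens, 10 glycoproteins and proteoglycans, and 3 proteases or protease inhibitors. The mice carried a Cre recombinase transgene active in the SC lineage, the reporter ReYFP (enhanced yellow fluorescent protein, eYFP, behind a stop cassette that Cre removes) and βAct-DsRed, on a C57bl/6J background. Cells positive for eYFP were sorted singly into the wells of 2 plates and processed with Smart-seq2, which reads full-length transcripts without molecular identifiers. Each plate held its own pool of mice, so the plate was the replicate (n = 2), and male and female mice were pooled. There was no untreated or mutant group, every cell carried the same alleles, and the gate took any cell in which Cre had been active at some time.

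Of 743 wells, 621 had at least 1500 detected genes and were kept as cells, 287 on plate 1 and 334 on plate 2. Kept cells held between 26673 and 2291613 reads, with a median of 875315. They were divided by reads scaled to 1000000 per cell (CPM). Cycling cells had at least 50 CPM of Mki67 and Top2a together (53 and 57 cells on plates 1 and 2), promyelinating cells had at least 50 CPM of Ncmap and were not cycling (59 and 60 cells), and the remaining 175 and 217 cells are called other cells. These classes are ranges of a measured level and not types: 9 cells lay between 25 and 100 CPM for the cycling pair and 9 for Ncmap, and 28 of the other cells held reads of these genes under the threshold. Of the SC markers, Sox10 was read in 82.4% of cells, Erbb3 in 82.4% and S100b in 54.1%, and 17 cells held no read of these 3 genes. The 10 myelination genes of the marker list summed to 17862 and 17881 CPM in promyelinating cells against 4621 and 5496 CPM in other cells. Of the markers of other nerve cells, those of fibroblasts summed to between 0 and 1.46 CPM with Pdgfra, Dpt and Clec3b at 0, and those of endothelial cells to between 0 and 2.91 CPM with Cdh5 and Kdr at 0. Immune markers summed to between 2.77 and 20.7 CPM with Ptprc and Tyrobp at 0, mural markers to between 24.8 and 56.8 CPM with Acta2 and Rgs5 at 0, and perineurial markers to between 34.8 and 74.8 CPM with Lypd2 at 0. Itgb4, listed as a perineurial marker, was read in 36.7% of cells. It stood at 47.3 and 52.4 CPM in other cells against 7.33 and 17.7 CPM in promyelinating cells. Pdgfrb, listed as a mural marker, reached 43.7 CPM. At least 50 CPM of perineurial markers was held by 30.9% of cells, of mural markers by 12.1% and of immune markers by 6.28%.

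The basal lamina is a sheet of laminin trimers and type IV collagen, tied together by nidogens and heparan sulphate proteoglycans, that every SC lays down around itself and its axons. SCs bind it through integrins and dystroglycan. In mice without the laminin alpha chain encoded by Lama2, SCs sort axons incompletely, and sorting is a step that precedes myelination. Outside this sheet lies the endoneurial matrix of fibrillar collagens, to which both SCs and fibroblasts contribute.

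Sequence upstream of 4 members is shown because they are the 2 members called higher in promyelinating cells, the called member with the largest fall, and the collagen called against other cells. RefSeq promoters (GRCm38.p6) matched 29 of the 42 members. Each run covers the bases from 250 to 51 before the RefSeq transcript start, read 5′ to 3′ on the strand of the gene, and capitals mark the GC box GGGCGG on either strand. Emid1 is at chr11:5152281-5152480 on the minus strand, Serpine2 at chr1:79858716-79858915 on the minus strand, Tnc at chr4:64047066-64047265 on the minus strand and Col3a1 at chr1:45311288-45311487 on the plus strand. For Serpine2, GENCODE also annotates a transcript that starts further upstream, so the run lies in an intron of that transcript.
Emid1: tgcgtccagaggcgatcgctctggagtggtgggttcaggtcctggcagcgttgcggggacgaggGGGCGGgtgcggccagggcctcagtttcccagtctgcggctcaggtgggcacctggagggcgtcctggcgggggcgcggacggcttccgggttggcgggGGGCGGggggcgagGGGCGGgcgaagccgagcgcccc
Serpine2: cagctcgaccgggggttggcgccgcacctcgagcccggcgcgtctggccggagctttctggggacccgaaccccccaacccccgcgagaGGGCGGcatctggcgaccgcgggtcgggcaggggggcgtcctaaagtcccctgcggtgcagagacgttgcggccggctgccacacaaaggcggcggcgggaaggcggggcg
Tnc: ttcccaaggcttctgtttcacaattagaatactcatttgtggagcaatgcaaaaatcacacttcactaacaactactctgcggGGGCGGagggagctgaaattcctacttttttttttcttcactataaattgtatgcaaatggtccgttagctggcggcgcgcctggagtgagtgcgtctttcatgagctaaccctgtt
Col3a1: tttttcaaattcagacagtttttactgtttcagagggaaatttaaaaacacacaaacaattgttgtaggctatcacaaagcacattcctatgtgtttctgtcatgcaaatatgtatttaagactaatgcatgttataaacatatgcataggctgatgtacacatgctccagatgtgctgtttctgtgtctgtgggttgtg

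The GC content of these runs was 76% for Emid1, 75.5% for Serpine2, 44.5% for Tnc and 35% for Col3a1. The GC box was found 3 times in the run of Emid1, once each in those of Serpine2 and Tnc, and not in that of Col3a1. Over the whole 250 bases upstream, 20 of the 29 members (69%) held a GC box, against 32.9% of 27025 promoters. The letters ACAANG, bound by SOX proteins, were found in 9 members (31%, against 36.6% of promoters), GTGGGNG, the core bound by EGR proteins, in 11 (37.9% against 27.8%), TGANTCA, the AP-1 site, in 1 (3.45% against 6.87%) and GGAATG, bound by TEAD proteins, in 4 (13.8% against 12.6%). Both strands were searched, and a GC box can share letters with an EGR core. A match only describes the letters of a window.

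SCs of all 3 classes held matrix transcripts at high level. The 42 genes summed to 26955 and 26747 CPM in cycling cells (plates 1 and 2), 21691 and 22627 CPM in promyelinating cells and 30906 and 29364 CPM in other cells, which is 2.69%, 2.22% and 3.01% of reads. The classes did not overlap in this sum, with promyelinating cells lowest on both plates. Single cells spread far more widely, from 8537 to 65407 CPM, and a cell held reads of between 20 and 23 members as the median of its class and plate. Reads of 41 members were found. Lamc3 had 0 reads in 621 cells, which allows a share of up to 0.483% of cells with a read, and 40 members passed the filter on low counts (all but Lamc3 and Vcan).

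**Figure D1:**
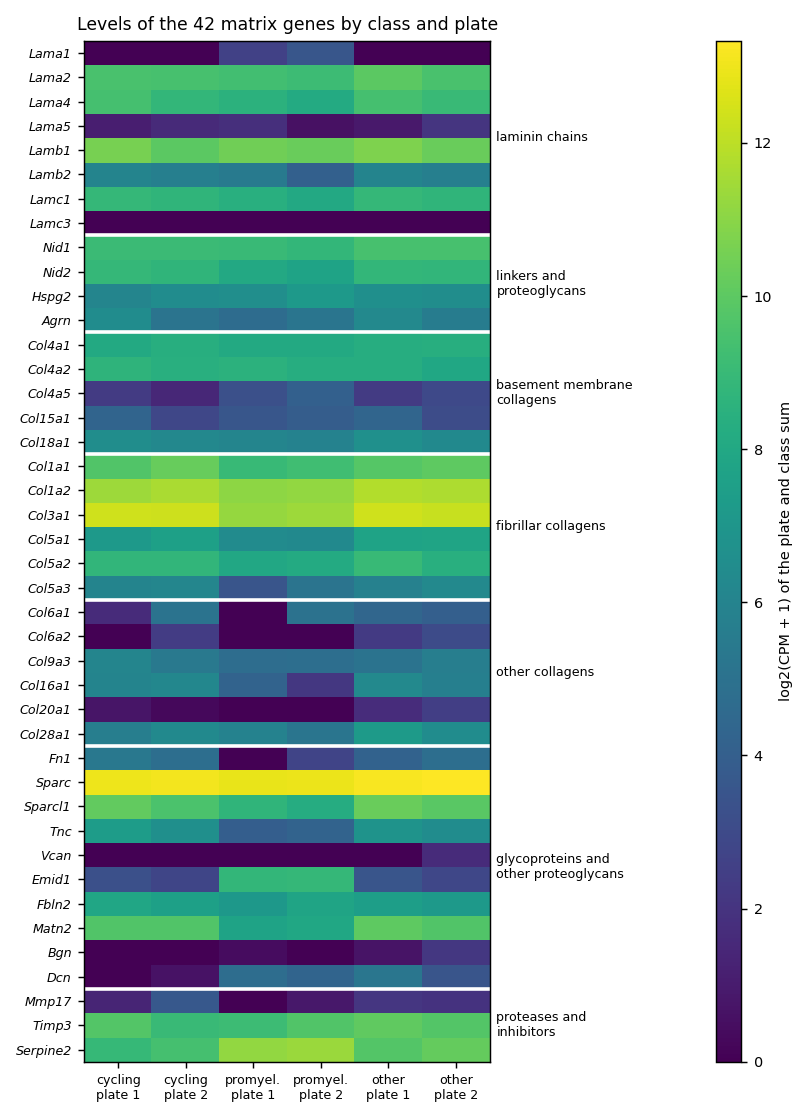
Heat map of the 42 genes (rows, grouped by role) in the 6 sums of cells (columns, class and plate), coloured by log2(CPM + 1). Sparc, Col3a1 and Col1a2 are bright in every column, Emid1 is bright in the promyelinating columns, and Lamc3 is at 0 throughout.

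Promyelinating cells differed from other cells in 6 of the 42 genes. Emid1, which encodes a secreted EMI domain protein, and Serpine2, an inhibitor of thrombin and plasminogen activators also known as protease nexin 1, rose. Matn2 and Tnc, which encode the adhesive matrix proteins matrilin 2 and tenascin C, fell together with the collagen gene Col3a1 and Sparcl1, a matricellular relative of Sparc. The reads of the cells of a class were added up on each plate, and these sums entered the quasi-likelihood test of edgeR, adjusted over 13292 genes. The 2 members called higher compare with 0.497% of all genes tested, and the 4 called lower with 1.29%. At an unadjusted p under 0.05 there were 20 members, against 11.2% of all genes. The median log2 fold change of the 40 tested members was -0.56, beside -0.07 for all genes. Because the list was chosen with earlier results of these data known, these shares describe it and are no test of it.

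Emid1 stood at 456 and 471 CPM in promyelinating cells (plates 1 and 2), at 8.45 and 5.90 CPM in cycling cells and at 10.5 and 6.13 CPM in other cells. The 2 promyelinating sums lay far above the other 4. The log2 fold change against other cells was 5.87 (SE 0.42, adjusted p = 0.00067), or 43.5-fold and 76.8-fold on plates 1 and 2. Of the promyelinating cells, 51 of 59 and 48 of 60 held at least 50 CPM, against 5 of 110 cycling cells and 16 of 392 other cells. Among other cells with some Ncmap under the threshold, 2 of 13 reached 50 CPM of Emid1. Over the 621 cells, Emid1 and Ncmap were read together in 111 cells, Emid1 alone in 24 and Ncmap alone in 23, with a Spearman rho of 0.81 given as a description only, since Ncmap defined the class. Emid1 lies on chromosome 11 (5106265 to 5152257, minus strand, GRCm38).

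Serpine2 stood at 2302 and 2606 CPM in promyelinating cells, at 880 and 1160 CPM in other cells and at 495 and 666 CPM in cycling cells. The 3 classes did not overlap. It was 1.35 higher on the log2 scale in promyelinating than in other cells (SE 0.20, adjusted p = 0.013), that is 2.62-fold and 2.25-fold on the plates. Without the 275 cells in which marker genes of other cell types of the nerve reached 50 CPM in sum, the log2 fold change was 1.21 with an adjusted p of 0.39. All 119 promyelinating cells held a read of it, and 93.2% and 95% of them held over 1000 CPM, against 33.7% and 37.3% of other cells. The remaining inhibitor, Timp3, which blocks metalloproteinases and shares exon sequence with Syn3 on the opposite strand, ranged from 516 to 1070 CPM with overlapping classes. Mmp17, a membrane-anchored metalloproteinase, was read in 15 cells only.

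Matn2 stood at 214 and 249 CPM in promyelinating cells, at 841 and 840 CPM in cycling cells and at 1033 and 848 CPM in other cells. Promyelinating cells were lowest on both plates. The log2 fold change against other cells was -1.95 (SE 0.20, adjusted p = 0.0023), 4.84-fold and 3.41-fold lower on plates 1 and 2. Reads were found in 67.2% ± 3.96 of promyelinating cells and in 92.0% ± 0.85 of other cells (mean ± SD over plates, n = 2), and the median cell fell from 697 and 654 CPM in other cells to 21.7 and 98.9 CPM.

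Tnc stood at 14.9 and 18.1 CPM in promyelinating cells, at 114 and 88.3 CPM in other cells and at 167 and 99.5 CPM in cycling cells. The log2 fold change against other cells was -2.54 (SE 0.41, adjusted p = 0.019). It was read in 19.3% ± 0.96 of promyelinating, 35.2% ± 6.78 of other and 51.7% ± 3.77 of cycling cells. With each cell thinned to 50000 reads the shares were 14.5%, 29.0% and 43.1%. The exons of Tnc overlap those of 8030451A03Rik on the opposite strand, and those of Matn2 overlap 9430069I07Rik, so reads of these pairs cannot be told apart without strand.

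Sparcl1 stood at 422 and 309 CPM in promyelinating cells, at 1270 and 956 CPM in other cells and at 1101 and 741 CPM in cycling cells. The log2 fold change against other cells was -1.53 (SE 0.28, adjusted p = 0.033). Its better known relative Sparc, a collagen-binding glycoprotein, was the most abundant member in every sum, at 7619 and 7970 CPM in promyelinating cells, 8126 and 8813 CPM in cycling cells and 9434 and 10324 CPM in other cells. Sparc was read in all 621 cells. Its difference between promyelinating and other cells was -0.26 on the log2 scale (SE 0.12, adjusted p = 0.45) and did not pass the test.

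**Figure D2:**
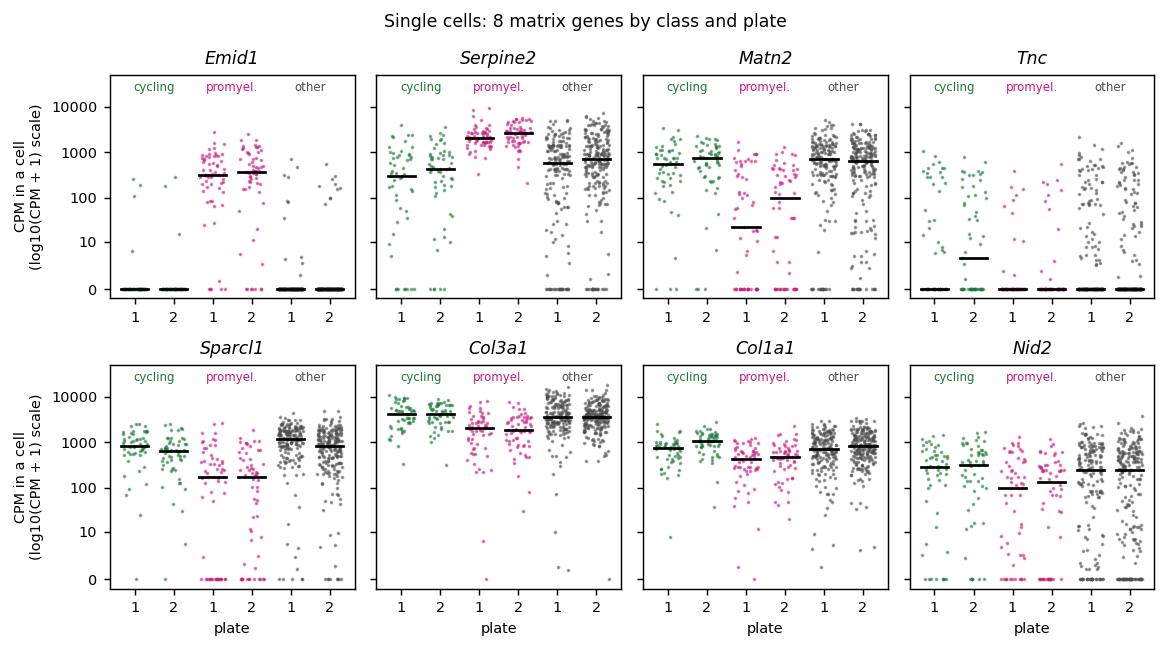
Each point is a cell, placed by class and plate (x axis) and by its CPM of the gene named above the panel (y axis, log10(CPM + 1) scale), and black bars are medians. Emid1 was not read in most cells outside the promyelinating class and had medians of 322 and 370 CPM inside it, while Matn2 and Sparcl1 spread down to 0 there.

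All 6 fibrillar collagens were lower in promyelinating than in other cells on both plates, a pattern that 36.4% of all genes tested shared. Of the 40 tested members, 28 were lower and 5 higher on both plates, where 23.3% of all genes were higher. The 6 fibrillar genes summed to 5401 and 5933 CPM in promyelinating cells against 10551 and 9775 CPM in other cells and 9468 and 10142 CPM in cycling cells. One of the 6, Col3a1, passed the test. Col3a1, which encodes the chain of type III collagen, stood at 2404 and 2658 CPM in promyelinating cells, at 5302 and 4776 CPM in other cells and at 5346 and 5015 CPM in cycling cells. The log2 fold change against other cells was -0.92 (SE 0.14, adjusted p = 0.016), 2.21-fold and 1.80-fold lower on plates 1 and 2. Col3a1 shares exon sequence with Gm47302 on the same strand, so its counts are uncertain to that extent.

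Col1a1 and Col1a2 encode the chains of type I collagen. Col1a1 stood at 501 and 605 CPM in promyelinating cells, 896 and 1025 CPM in other cells and 842 and 1201 CPM in cycling cells. Col1a2 stood at 2150 and 2276, 3577 and 3341, and 2631 and 3239 CPM in the same order. Against other cells the log2 fold changes were -0.72 (adjusted p = 0.18) and -0.57 (adjusted p = 0.13), and neither passed. In type V collagen, which sets the width of type I fibrils, Col5a1 stood at 85.8 and 80.2 CPM in promyelinating cells, at 215 and 220 CPM in other cells and at 143 and 187 CPM in cycling cells. Its log2 fold change was -1.31 (SE 0.26) with an adjusted p of 0.051. Col5a3 stood at 10.4 and 33.6 CPM in promyelinating, 56.9 and 77.3 CPM in other and 63.8 and 68.2 CPM in cycling cells, with a log2 fold change of -1.53 against other cells (adjusted p = 0.36). Col5a2 ranged from 250 to 505 CPM with an adjusted p of 0.42. With the plate as a replicate block in the model, 11 members were called in place of 6. The added ones were Col1a1, Col1a2, Col5a1, Lama4 and Nid2. The share of all genes called with the block is not given here, so these added calls are not set against it.

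The fibrillar collagens of types I and III were read in nearly every cell. Those of type V were read in fewer, Col5a2 in 498, Col5a1 in 378 and Col5a3 in 216 of 621 cells. Col1a2 had reads in 621 cells, Col1a1 in 620 and Col3a1 in 619, and in promyelinating cells the median of Col3a1 was still 2059 and 1845 CPM. Per kilobase of exon, Col3a1 stood at a mean of 258 CPM in promyelinating, 513 in other and 528 in cycling cells, ahead of Col1a2 (178, 278 and 236) and Col1a1 (84.3, 146 and 156). Over cells, Spearman rho was 0.48 between Col1a1 and Col1a2 and 0.56 between Col1a2 and Col3a1, a description over 621 cells of 2 plates that share depth and class.

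Genes that respond to tissue dissociation summed lower in promyelinating cells, and most of that sum was Fos, at 1871 and 1961 CPM in promyelinating against 4386 and 4561 CPM in other cells. The 8 genes of that list (Atf3, Egr1, Fos, Fosb, Hspa1a, Hspa1b, Ier2 and Junb) summed to 2205 and 2418 CPM in promyelinating cells, 5842 and 6380 CPM in other cells and 4726 and 7160 CPM in cycling cells, and Atf3 was at 0 and 1.09 CPM in promyelinating cells against 328 and 344 CPM in other cells. The heat shock gene Hspa1b did not follow, at 24.8 and 46.1 CPM in promyelinating, 24.6 and 26.0 CPM in other and 15.7 and 21.1 CPM in cycling cells, and Hspa1a stood at 83.6 and 94.3 CPM in promyelinating, 113 and 114 CPM in other and 51.6 and 63.9 CPM in cycling cells. The part of these genes in the differences was not tested beyond leaving cells out. At least 50 CPM of Atf3 was held by 147 cells, nearly all outside the promyelinating class. They were 0 and 1 promyelinating, 11 and 19 cycling, and 49 and 67 other cells on plates 1 and 2. Without these 147 cells, 4 members were called: Emid1, Serpine2, Matn2 and Tnc. Col3a1 then had a log2 fold change of -0.81 (adjusted p = 0.067) and Sparcl1 one of -1.43 (adjusted p = 0.064). At least 50 CPM summed over the markers of other nerve cells was held by 275 cells. They were 18 and 27 cycling, 29 and 27 promyelinating, and 73 and 101 other cells on plates 1 and 2. Of these markers, Itgb4 was the most widely read, in 36.7% of kept cells. Slc2a1, Cspg4, Csf1r and Pdgfrb followed, in 13.2%, 9.98%, 9.34% and 8.53%. Pdgfra, Cdh5, Kdr, Acta2, Rgs5, Ptprc, Tyrobp and Lypd2 had 0 reads. Whether the 275 cells were of other types, or SCs holding these reads, was not tested. When these 275 cells were left out, 2 members were called, Emid1 and Matn2. The 4 lost calls then had log2 fold changes of 1.21 for Serpine2 (adjusted p = 0.39), -0.83 for Col3a1 (adjusted p = 0.14), -1.48 for Sparcl1 (adjusted p = 0.093) and -2.98 for Tnc (adjusted p = 0.055).

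**Figure D3:**
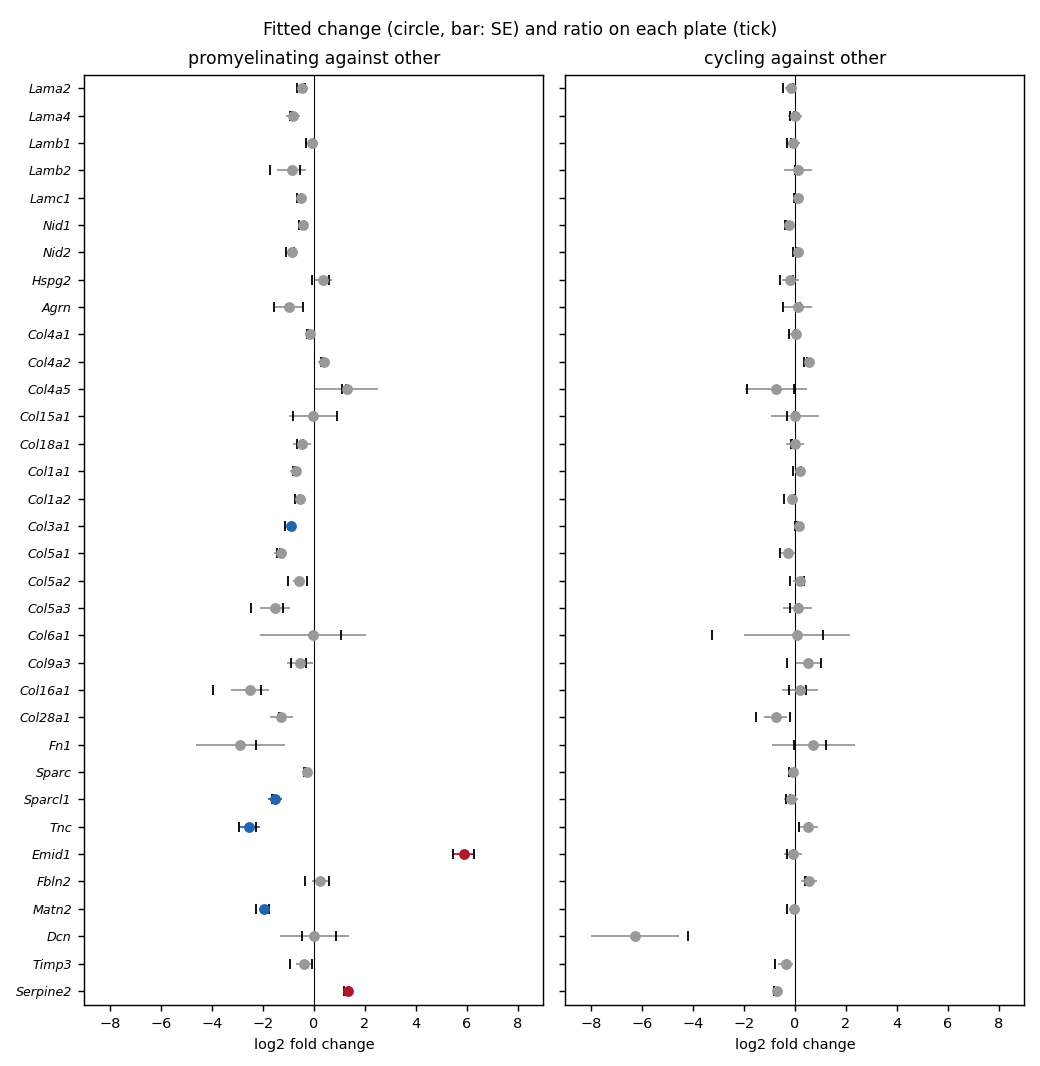
Fitted log2 fold change (circle, bar: SE) and the log2 ratio on each plate (ticks, drawn where both sums had reads) for the 34 tested members with a mean of at least 10 CPM in some class, promyelinating against other cells on the left and cycling against other cells on the right. Red marks members called higher and blue those called lower at an adjusted p under 0.05: 2 and 4 on the left, none on the right.

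No laminin chain passed edgeR's test between promyelinating and other cells. At an unadjusted p under 0.05 there were 3 (Lama1, Lama4 and Lamc1), against 11.2% of all genes. DESeq2, which called more of all genes than edgeR did, called 1, Lama1. With the plate as a replicate block, Lama4 was called lower in promyelinating cells than in other cells (adjusted p = 0.034) and than in cycling cells (adjusted p = 0.016). Per kilobase of exon the order of the chains was Lamb1 first, at a mean of 133 CPM in promyelinating, 149 in other and 128 in cycling cells. Lamc1 (36.2, 54.0 and 53.9), Lama2 (36.7, 53.0 and 43.1) and Lama4 (27.3, 50.4 and 46.6) followed at like levels, and these 3 neighbours changed order between classes. Lamb2 stood at 4.99 to 9.68 CPM per kilobase, Lama1 at 0.82 in promyelinating cells and 0 elsewhere, Lama5 at 0.13 to 0.18, and Lamc3 at 0. Lama2, Lamb1 and Lamc1 encode the chains of the main laminin of the SC basal lamina, and Lama4 the alpha chain of a second one that SCs make early in development.

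Lamb1 stood at 1392 and 1242 CPM in promyelinating cells, 1711 and 1239 CPM in other cells and 1554 and 991 CPM in cycling cells, with overlapping classes. Lama2 stood at 630 and 568, 1006 and 727, and 721 and 689 CPM in the same order. Promyelinating cells were lowest on both plates, yet the difference from other cells (-0.46 on the log2 scale, SE 0.21) had an adjusted p of 0.48. Lama4 stood at 380 and 279 CPM in promyelinating, 687 and 528 CPM in other and 665 and 459 CPM in cycling cells, with a log2 fold change of -0.81 (SE 0.28, adjusted p = 0.29), and Lamc1 ranged from 264 to 474 CPM (-0.50, adjusted p = 0.44). These chains were read in most cells: Lamb1 in 609, Lama2 in 582, Lamc1 in 579 and Lama4 in 554 of 621.

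Lama1, the alpha chain of early embryonic basement membranes, was read in 5 cells, all of them promyelinating, at 14.1 to 478 CPM, and 98.5% of its reads came from 3 cells. All 5 cells held SC marker reads, as did all but 17 of the kept cells, and 1 held a read of Pdgfra, Lum, Pi16 or Dpt. Its sums were 4.91 and 10.97 CPM in promyelinating cells and 0 in the 4 others, so no fold is given, and edgeR's adjusted p was 0.18. Lama5 was read in 12 cells and Lamb2 in 127.

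**Figure D4:**
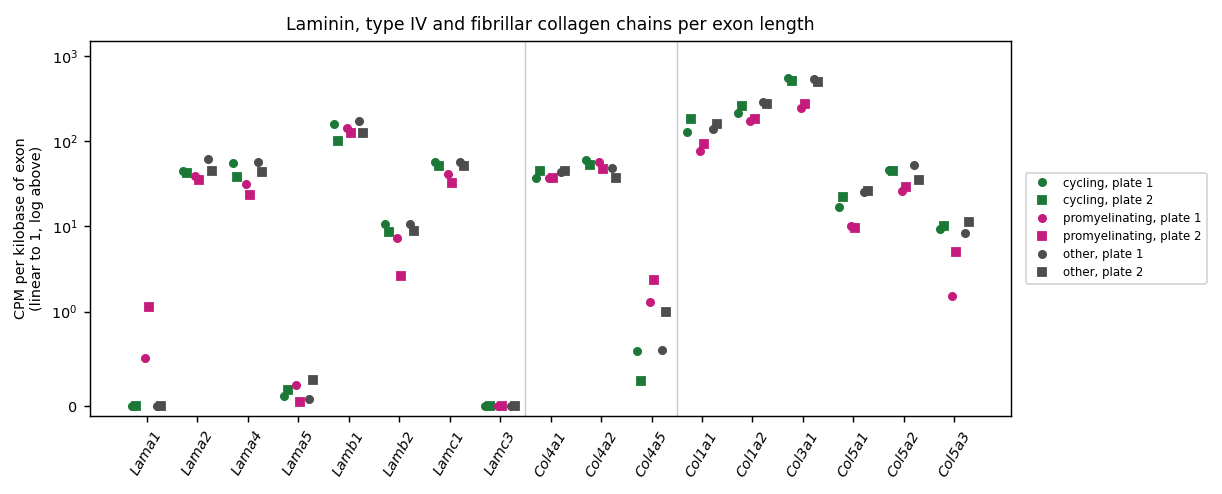
Level per kilobase of exon (y axis, linear to 1 and logarithmic above) of laminin, type IV and fibrillar collagen chains in the 6 sums, with colour for class and circles or squares for plates 1 and 2. Lamb1 lies above the other laminin chains in each sum, and the promyelinating points of all 6 fibrillar chains lie below those of other cells on the same plate.

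Among the linkers, the nidogens bridge laminin and type IV collagen, and neither passed the test against other cells. Nid2 stood at 259 and 210 CPM in promyelinating cells, 449 and 443 CPM in other cells and 469 and 420 CPM in cycling cells, with a log2 fold change of -0.85 against other cells (SE 0.21, adjusted p = 0.11). Nid1 stood at 529 and 454, 697 and 691, and 534 and 548 CPM in the same order (-0.42, adjusted p = 0.44). Per kilobase the ratio of Nid1 to Nid2 was 1.52 and 1.61 in promyelinating cells, 1.16 on each plate in other cells, and 0.85 and 0.97 in cycling cells, ratios for which no test was run. Nid2 shares exon sequence with Rtraf on the opposite strand.

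Hspg2, which encodes perlecan, was read in 592 cells at 67.3 to 140 CPM per sum. Agrn, which encodes agrin, was read in 122 cells at 25.3 to 87.3 CPM. Neither passed a test, with adjusted p of 0.82 and 0.61 between promyelinating and other cells.

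The network-forming chains Col4a1 and Col4a2 did not pass the test in any comparison. Col4a1 stood at 272 and 275 CPM in promyelinating, 319 and 328 CPM in other and 275 and 330 CPM in cycling cells (-0.16 between promyelinating and other cells, SE 0.20, adjusted p = 0.89). Col4a2 stood at 378 and 315, 316 and 246, and 401 and 343 CPM in the same order (0.38, SE 0.24, adjusted p = 0.64). Both genes lie head to head on chromosome 8, with RefSeq starts 21 bases apart (11312826 and 11312805) on opposite strands, and their first exons overlap. Reads of both were found in 406 cells, of Col4a1 alone in 152 and of Col4a2 alone in 44, and over cells their levels had a Spearman rho of 0.09. Col18a1 ranged from 59.6 to 103 CPM, Col15a1 from 6.12 to 19.2 CPM and Col4a5 from 1.82 to 15.9 CPM. By edgeR, 0 of these 5 genes had an unadjusted p under 0.05 in any comparison, and DESeq2 called 0.

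Of the 6 other collagens, 0 passed edgeR's test against other cells, with 4 at an unadjusted p under 0.05, against 11.2% of all genes. DESeq2, which called more of all genes than edgeR did, called 3. Col28a1 and Col16a1 had at least 50 CPM in their highest class mean. Both lay over 2-fold lower in promyelinating than in other cells on both plates. The share of all genes at this level and fold is not given here, so the pair is not set against it. Col28a1, a collagen of peripheral nerve, stood at 59.4 and 35.01 CPM in promyelinating, 150 and 90.1 CPM in other and 52.0 and 79.4 CPM in cycling cells (-1.28 against other cells, SE 0.45, adjusted p = 0.31). Col16a1, which associates with fibrils, stood at 17.97 and 3.46 CPM in promyelinating, 75.8 and 53.5 CPM in other and 64.9 and 71.6 CPM in cycling cells (-2.51, SE 0.74, adjusted p = 0.20). Col16a1 was read in 15.2% ± 4.93 of promyelinating cells, 33.6% ± 5.81 of other cells and 52.0% ± 6.53 of cycling cells. Col9a3 ranged from 26.4 to 65.9 CPM. Col6a1, Col6a2 and Col20a1 were read in 27, 6 and 10 cells, and the 3 cells with most reads held 50.2%, 90.6% and 74.5% of each gene's reads, so their levels are those of single cells.

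Among the remaining glycoproteins and proteoglycans, Fbln2, which encodes fibulin 2, ranged from 136 to 238 CPM with overlapping classes. Fn1, the gene of fibronectin, was read in 34 cells, 1 of them promyelinating, 10 cycling and 23 other. Vcan (versican) was read in 2 cells and Bgn (biglycan) in 6. Dcn, which encodes decorin and is a standard fibroblast transcript, was read in 25 cells: 13 promyelinating, 11 other and 1 cycling. Each of these 25 cells held an SC marker read, but only 17 of all kept cells held no such read. A read of Pdgfra, Lum, Pi16 or Dpt was found in 0 of the 25. Over all kept cells, Pdgfra and Dpt had 0 reads, and Lum and Pi16 were read in 0.483% and 0.322%. These markers therefore do not set the 25 cells apart from the other kept cells. The level of Dcn among the 25 reached 2411 CPM.

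No member passed edgeR's test between cycling and other cells, in which 0.895% of all genes were called higher and 0.113% lower. At an unadjusted p under 0.05 there were 2 members, Dcn and Serpine2, against 10.1% of all genes. DESeq2, which called more of all genes than edgeR did, called those 2. The median log2 fold change of the members was 0.0046, beside -0.07 for all genes. On both plates 22 of the 40 tested members were lower in cycling than in other cells, as were 38.2% of all genes, and 4 were higher, as were 20.5%. Serpine2, with the values given above, was 0.68 lower in cycling than in other cells on the log2 scale (SE 0.20) with an adjusted p of 0.24, and with the plate as a replicate block its adjusted p was 0.038. Dcn was at 0 and 0.58 CPM in cycling cells and at 36.7 and 10.5 CPM in other cells, where 11 cells held its reads. Emid1, Matn2, Tnc and Sparcl1 had log2 fold changes of -0.08, -0.03, 0.53 and -0.14, with adjusted p between 0.71 and 0.99.

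Promyelinating cells differed from cycling cells in 8 members, 6 of them the genes already called against other cells, whose promyelinating values the 2 comparisons share. Higher calls numbered 2 (Emid1 and Serpine2), where 2.12% of all genes were called higher, and lower calls 6 (Matn2, Col3a1, Tnc, Sparcl1, Nid2 and Col1a1), where 3.83% were called lower. At an unadjusted p under 0.05 there were 19 members, against 20.1% of all genes, and the median log2 fold change was -0.50, beside -0.02 for all genes. The 2 genes called here but not against other cells were Nid2 (-0.98, SE 0.21, adjusted p = 0.032) and Col1a1 (-0.93, SE 0.21, adjusted p = 0.036). Serpine2 was 2.03 higher on the log2 scale (SE 0.20, adjusted p = 0.00087) and Emid1 5.95 higher (SE 0.42, adjusted p = 0.00016). Matn2 was -1.91 (adjusted p = 0.0010), Tnc -3.08 (adjusted p = 0.0040), Sparcl1 -1.39 (adjusted p = 0.024) and Col3a1 -1.09 (adjusted p = 0.0034). All 6 fibrillar collagens were lower than in cycling cells on both plates, as were 29.6% of all genes. Of the 40 tested members 25 were lower and 6 higher on both plates, where 31.5% of all genes were higher. Without the 147 Atf3 cells, Nid2 had a log2 fold change of -0.99 (adjusted p = 0.081) and Col1a1 one of -0.996 (adjusted p = 0.059). The call of Nid2 was also lost with cells of at least 2500 genes (adjusted p = 0.064), and those of Nid2, Col1a1, Sparcl1 and Serpine2 were lost without the cells holding markers of other nerve cells, with log2 fold changes of -1.06, -1.05, -1.33 and 1.90.

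Among 106 further matrix genes, of which 81 could be tested, 5 fell and 0 rose in promyelinating against other cells, beside 1.29% and 0.497% of all genes tested. The 3 with the largest change were Col11a1, a fibrillar collagen of the same family, Postn, which encodes the collagen-binding protein periostin, and Thbs2, an antiangiogenic thrombospondin. Col11a1 stood at 15.4 and 18.8 CPM in promyelinating and 129 and 168 CPM in other cells (-3.04, adjusted p = 0.0036). Postn stood at 139 and 135 CPM against 871 and 816 CPM (-2.54, adjusted p = 0.00067), and Thbs2 at 56.2 and 33.2 CPM against 218 and 217 CPM (-2.20, adjusted p = 0.026). The other two were Vwa1 and Sdc4. The 40 tested structural genes had a median log2 fold change of -0.83, and the 23 tested genes of collagen and matrix processing (hydroxylases, chaperones and cross-linking enzymes) one of -0.02, with 0 calls by edgeR, 4 genes at an unadjusted p under 0.05 (11.2% of all genes) and 3 called by DESeq2. The 18 tested proteases and inhibitors outside the members had a median of -0.91, with 0 calls by edgeR, 6 at an unadjusted p under 0.05 (11.2% of all genes) and 5 in DESeq2. Over all genes DESeq2 also called more than edgeR.

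Against cycling cells, 4 of the 81 tested genes rose and 6 fell in promyelinating cells, beside 2.12% and 3.83% of all genes. Ncan, the gene of neurocan, was at 18.5 and 9.07 CPM in promyelinating cells and at 0 in both cycling sums. In other cells it was at 4.25 and 25.7 CPM, higher than in promyelinating cells on plate 2. Ogn, a small leucine-rich proteoglycan, was at 130 and 96.5 CPM against 14.2 and 3.11 CPM (3.64, adjusted p = 0.032). P3h1, a prolyl hydroxylase acting on collagen, was at 80.4 and 194 CPM against 18.5 and 35.3 CPM (2.31, adjusted p = 0.048). Other cells held 32.1 and 72.6 CPM of Ogn, and 90.9 and 54.1 CPM of P3h1. Of those that fell, P4ha2, another collagen prolyl hydroxylase, was at 0.31 and 0 CPM against 31.8 and 17.4 CPM. Col11a1 (-3.11) and Postn (-3.07) were lower here too. Between cycling and other cells, 0 of the 81 were called by edgeR, and 7 had an unadjusted p under 0.05, against 10.1% of all genes. DESeq2, which called more of all genes than edgeR did, called 4.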

How the data were processed

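Single eYFP-positive SCs of mouse sciatic nerve were processed with Smart-seq2 on 2 plates. The authors sequenced each well, aligned reads with STAR 2.6.1c to GRCm38.p5 and counted them per gene with featureCounts, per the labels, and deposited raw read counts with no normalisation. The study's methods name a human assembly and other versions, whereas the gene IDs are those of mouse. Use of strand in counting is not given in the sources used here. Symbols, coordinates and exon lengths came from GENCODE M21 (GRCm38), where 25587 of 25700 IDs matched.

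The study's minimum of 1500 detected genes was applied to wells, and no doublet caller was run on wells sorted with single cells. Cells were classed by CPM of Mki67, Top2a and Ncmap at 50, and counts were added up per class and plate, giving 6 sums from the 2 plates labelled in the titles. The replicates are separate pools of mice. edgeR 4.0.16 (TMM, filterByExpr, robust quasi-likelihood fit of all classes, no plate term) gave log2 fold changes, with SE as the absolute change over the square root of F, and Benjamini-Hochberg adjusted p over 13292 genes. CPM is the share of a sum's counts scaled to 1000000, and levels between genes were compared per kilobase of exon. The limit for a gene with 0 reads is 3 counts of the cells, and covers counting error only. Sums of a plate come from the same mice, and deviations from the class means correlated across 3705 genes for every pair of classes (r between 0.13 and 0.23), so the plate as a replicate block was an alternative.

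The members and lists were chosen with earlier results of these data known. Values in every sum are given for members called in any comparison, or at 50 CPM or more and over 2-fold apart in 1 direction on both plates, and for examples chosen by role, while from the other lists at most the 3 largest called changes per direction are named. Other alternatives were DESeq2 1.42.0, its size factors in edgeR, limma 3.58.1 on log2(mean CPM + 1) or + 10, no count filter, 1000 or 2500 genes per cell, class thresholds of 20 or 100 CPM, cells near a threshold left out, thinning to 50000 reads, cells without Sox10, S100b and Erbb3 or with markers of other nerve cells left out, each plate left out, and, chosen after seeing the data, cells with Atf3 left out. The steps were tested on simulated data. Protein sequences were not used here. Some marker genes of the lists are not reported here.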

Additional observations from a re-analysis of the deposited data

Results flagged for a closer look

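Wells set aside for too few detected genes, which no comparison used, still held matrix transcripts. In these wells together the 42 genes summed to 21576.6 CPM on plate 1 (83 wells, median 6484 reads) and to 21063.4 CPM on plate 2 (39 wells, median 986 reads), beside 28331.6 and 27628.1 CPM in the kept cells of the same plates. The set-aside wells held 16834333 reads in sum on plate 1 and 4120895 on plate 2. Given their medians, the summed CPM rests mostly on the deeper of these wells and not on the typical one. Reads of 32 and 28 members were found in the set-aside wells.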

How the results depend on the processing

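The tally covers only members called in any comparison, or at 50 CPM or more and over 2-fold apart in 1 direction on both plates. None of their log2 fold changes changed sign while called. Of those recomputed, 524 were kept, 37 passed the threshold newly, 13 lost it and 38 moved. Values that stayed uncalled count as kept, and calls gained by the remaining members are not in the tally. Kept means the same direction and side of the threshold or, with a plate left out and no test, within the SE of the main value. Moved means farther than the SE with a plate left out, or a change of sign without a call. In promyelinating against other cells (6 members called), the count was 11 without a count filter, 14 in DESeq2, 11 with the replicate block of the plate, 12 in limma with a pseudocount of 1, and 2 without cells holding markers of other nerve cells, and 4 to 9 elsewhere. In cycling against other cells (0), it was 2 without the filter, 2 in DESeq2, 1 with the block, 1 after thinning and 1 without Atf3 cells. In promyelinating against cycling cells (8), it was 13 without the filter, 18 in DESeq2 and 5 without cells holding other markers, and the block gave 10. The block lost no call, and its calls over all genes are not given here. Emid1 and Matn2 were called in all 15 alternatives of both comparisons with promyelinating cells. Left-out plates leave ratios with no test.

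Over all genes the 3 comparisons, in that order, gave 238, 134 and 791 calls, against 521, 317 and 1290 without the filter, 1012, 796 and 2312 in DESeq2, 379, 232 and 1343 in limma with a pseudocount of 1 and 354, 285 and 1268 with 10, 411, 252 and 1146 after thinning, 99, 36 and 291 without cells holding other markers, and 127, 107 and 536 without Atf3 cells. The cause of these shifts was not tested, and the settings that drop cells also leave fewer cells. With 2 plates the fit rests on few degrees of freedom, and a p that misses the threshold does not show that levels were alike. Levels of genes read in few cells rest on those cells.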
